A study of Homo sapiens with 4 samples.

Results

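The METTL3 locus, the gene targeted by the knockdown, held 1 m6A peak in the control library and 0 in the knockdown library. Its members were the peaks on chromosome 14 with a summit between 21966000 and 21980000, a 14 kb window taken as the position of METTL3 in hg19, the genome build that the submitters' processing notes name. They made up 1 of the 9441 peaks of the control list and 0 of the 12252 peaks of the knockdown list, or 1 of 21693 in all. MeRIP-seq had been performed in H1975, an established human lung adenocarcinoma cell line grown in high-glucose medium, in which a lentivirus delivered either a control shRNA (NC-sh) or an shRNA against METTL3 (METTL3-sh). According to the labels the interference lasted 48 h. There were 4 samples, 1 Input and 1 MeRIP library per condition, and peak lists came from the MeRIP libraries. With 1 library per condition, no difference between NC-sh and METTL3-sh below has a replicate check and no test between them was made. The names of the peaks begin with H1299 in all 9441 and all 12252 peaks, whereas the labels give H1975. The study lists H1299 among its lung adenocarcinoma lines. In the wider study METTL3 was knocked down in H1975, and in H1299 it was overexpressed in some experiments and knocked down in others. The line named in the lists therefore bears on every value at METTL3. Which line and construct the libraries came from was not tested, and the labels were followed.

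METTL3 is the catalytic subunit of the methyltransferase complex that places N6-methyladenosine (m6A) on mRNA, working as a heterodimer with METTL14 and together with WTAP and further partners. The mark lies mostly within a short consensus around GGAC and is read by proteins of the YTH family, which act on the decay and translation of the marked mRNA. In MeRIP-seq, fragmented RNA is pulled down with an antibody against m6A, and the reads are set against an Input library of RNA that was not pulled down. A peak on METTL3 mRNA would therefore concern m6A on the transcript of the writer itself, which is also the mRNA that the shRNA was designed to deplete.

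The shRNA is shown because it is the only designed sequence of the experiment that is directed at this gene. It is 21 bases long, of which 9 are G or C, and it holds 0 GGAC motifs on either strand. It is printed 5′ to 3′ as the study lists it, in lower case with nothing marked, and its place in the METTL3 transcript was not analysed here.
METTL3 shRNA: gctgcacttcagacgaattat

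In NC-sh, the METTL3 peak lay at chr14:21968515-21969437 (hg19) and was 923 bp long, with its summit at 21969208. The summit stood 693 bp above the lower end of the peak and 229 bp below its upper end. In RefSeq's GRCh38.p14 annotation, METTL3 is a protein-coding gene on the minus strand of chromosome 14 and spans 13203 bp, close to the size of the window. The lists carry no strand. In GRCh38.p14 the 3′ end of METTL3 overlaps that of TOX4, a protein-coding gene on the plus strand, by 1033 bp. The peak began 2515 bp above the lower edge of the hg19 window. Whether the peak is exonic, intronic or in a UTR was not analysed here, as no hg19 annotation or genome was used.

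The peak was among the best covered of the NC-sh library. Its pileup, a rescaled count of the MeRIP reads that covered the summit, was 2667. This equals 8148 reads (exact 95% Poisson interval 7972 to 8327, counting error only), against a median of 169 reads over the 9441 NC-sh peaks, with quartiles of 70.0 and 475. By reads the METTL3 peak ranked 29th of 9441, and 99.7% of NC-sh peaks had fewer. Its length of 923 bp exceeded that of 89.8% of NC-sh peaks, whose median was 395 bp. The −log10 q that the peak caller gave was 1178, which ranked 139th, against a median of 39.8.

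The fold enrichment of the METTL3 peak was low despite the many reads. Fold enrichment is the pileup over a local expectation that the peak caller derives with Input, with a pseudocount of 1 on both. It was 6.44 at METTL3. The local expectation is not a count of Input reads at the summit, and no NC-sh peak had one below 0.511. The median of all NC-sh peaks was 10.2 (quartiles 7.59 and 15.8), and 7.63% of them were below the METTL3 peak. The local expectation, computed back from pileup and fold enrichment, was 413, ranking 7th of the 9441 NC-sh peaks, whose median was 4 and quartiles 1.20 and 10.6. The METTL3 peak thus had 48.2 times the median number of MeRIP reads and 103 times the median local expectation. As a check of both values, a Poisson tail recomputed from them gave a −log10 p of 1183.6, and the deposited value was 1183.6.

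**Figure D1:**
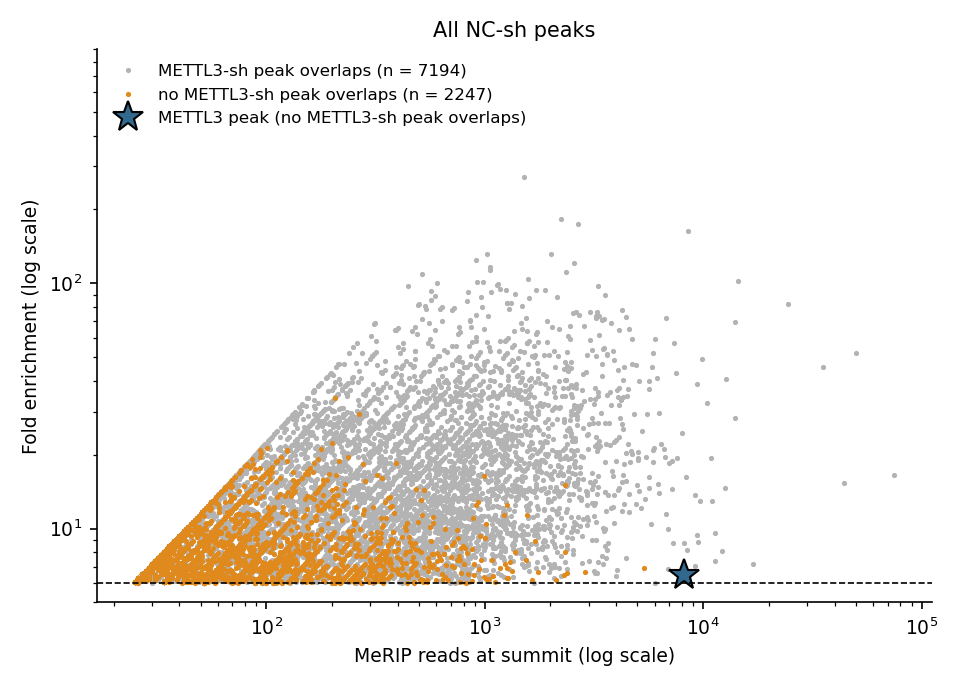
Each point is 1 of the 9441 NC-sh peaks, with MeRIP reads at the summit on the x axis and fold enrichment on the y axis, both on log scales, and the dashed line marks the limit of 6 on fold enrichment. The 2247 peaks with no METTL3-sh peak (orange) lie mostly at few reads, whereas the METTL3 peak (star) lies at 8148 reads and a fold enrichment of 6.44, farther right than every other peak without a counterpart.

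In METTL3-sh, no listed peak had its summit in the window or overlapped the NC-sh peak by even 1 bp. Across the whole NC-sh list, 2247 of 9441 peaks (23.8%) likewise had no overlapping METTL3-sh peak, so absence from the METTL3-sh list was not rare. Among those 2247 peaks the METTL3 peak ranked 1st by reads at the summit, by local expectation and by −log10 q. The next by reads, at chr5:137089191-137089813, had 5352 reads, a local expectation of 253 and a fold enrichment of 6.90. The median of the 2247 peaks was 70.0 reads, with quartiles of 41.0 and 136. Of the 71 NC-sh peaks with at least 5000 reads, 2 (2.82%, 95% Wilson interval 0.776 to 9.70%) had no METTL3-sh counterpart, and METTL3 and the chromosome 5 peak were these 2.

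Every listed peak in both libraries had a fold enrichment of at least 6, and the METTL3 peak stood 7.40% above a limit of 6. At the local expectation of 413 found in NC-sh, the limit corresponds to a pileup of 2483. A fall of 6.89% in fold enrichment would have taken the peak to the limit, as would a rise of 7.42% in local expectation at the same pileup. With the read scale of METTL3-sh and a local expectation of 413, a summit needed 6830 reads to reach the limit, whereas 24 reads sufficed at the lowest expectation of that library, 0.588. The missing METTL3-sh peak therefore does not give a read number at METTL3. The local expectation at METTL3 in METTL3-sh is not known from the lists, so a loss of METTL3 mRNA, a loss of m6A per transcript and a small shift across the limit cannot be told apart. As RNA was taken from whole cultures, a change in all cells and a change in a part of them cannot be told apart either.

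Falls of that size were common in peaks listed in both libraries. In 6863 cases a single NC-sh peak overlapped a single METTL3-sh peak and no other. Across these pairs, fold enrichment was at least 6.89% lower in METTL3-sh in 2383 (34.7%). Among the 1034 such pairs with at least 1000 reads in NC-sh this was the case in 362 (35.0%). These pairs include only peaks that passed the limit in both libraries, so they leave out those that fell below it.

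The share of NC-sh peaks without a METTL3-sh counterpart followed fold enrichment. Of the 781 NC-sh peaks with a fold enrichment from 6 to below 6.5, the band of the METTL3 peak, 391 (50.1%, 95% Wilson interval 46.6 to 53.6%) had no counterpart. The share was 30.1% of 1853 peaks from 8 to below 10, and 0.585% of 1539 peaks at 20 or more. Within the lowest band, 25 peaks had at least 1000 reads, and 10 of these (95% Wilson interval 23.4 to 59.3%) had no counterpart. By contrast, of all 1095 NC-sh peaks with at least 1000 reads, 30 (2.74%, interval 1.93 to 3.88%) had none. Both lists stop at a fold enrichment of 6, so a peak near 6 drops out after a smaller fall than a peak at 20 or more. A gradient of this direction is thus built into the lists. Peaks with fold enrichments near that of METTL3 were often missing from METTL3-sh, and peaks with a high read number seldom were. The same held in the other direction, and more METTL3-sh peaks than NC-sh peaks had no counterpart. Of the 12252 METTL3-sh peaks, 5067 (41.4%) overlapped no NC-sh peak. This was so for 880 of the 1144 METTL3-sh peaks with a fold enrichment from 6 to below 6.5 (76.9%), for 81 of the 1220 with at least 1000 reads (6.64%) and for 4 of the 85 with at least 5000 reads (4.71%, 95% Wilson interval 1.85 to 11.5%). A well covered peak listed in 1 library alone was thus not particular to NC-sh. In the 370 pairs whose NC-sh fold enrichment was under 6.5, the METTL3-sh fold enrichment had a median of 9.09 (quartiles 7.52 and 11.7). These pairs were chosen for a low NC-sh value and had to reach 6 in METTL3-sh as well. Their METTL3-sh values could thus hardly be lower, and the median does not measure a gain.

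**Figure D2:**
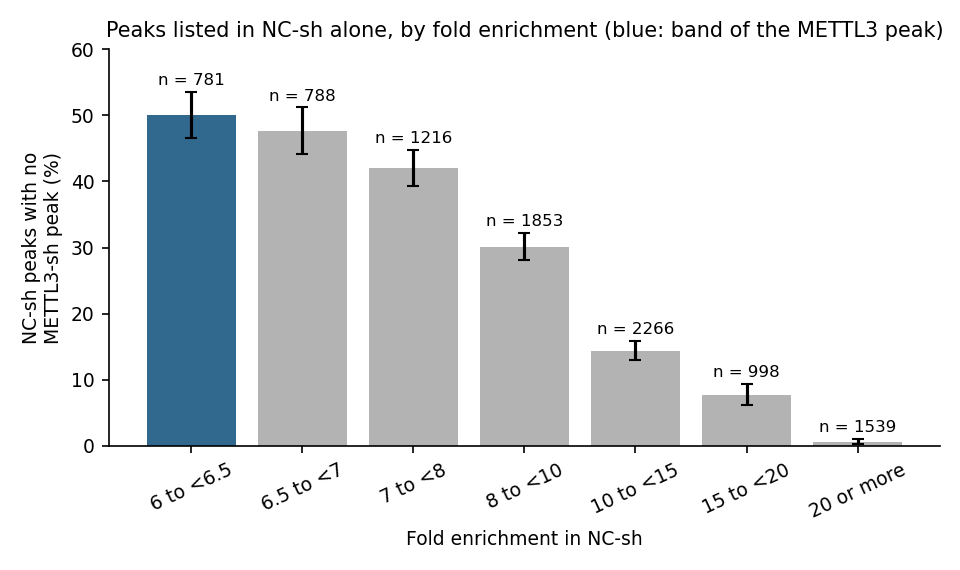
The x axis gives bands of NC-sh fold enrichment and the y axis the percent of NC-sh peaks in each band with no overlapping METTL3-sh peak, with 95% Wilson intervals as error bars (counting error only) and the number of peaks above each bar. The band of the METTL3 peak (blue) has 50.1%, and the share falls to 0.585% at a fold enrichment of 20 or more.

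The local expectation at METTL3 was among the highest of the NC-sh list. Names beginning with H1299 are on every peak of both lists, not at METTL3 alone. By the labels NC-sh received a control shRNA. The source of the high local expectation at METTL3 was not tested. The 6 NC-sh peaks with a higher local expectation were all listed in METTL3-sh as well. Their reads ranged from 9192 to 74581 in NC-sh and from 8578 to 72046 in METTL3-sh, and their fold enrichment from 7.06 to 16.6 and from 7.92 to 16.8. Fold enrichment was higher in METTL3-sh in 5 of the 6, whereas over all 6863 pairs it was lower there in 41.1%. Among the 6, the peaks at chr8:144990223-144993217 and chr8:144993585-144996140 were neighbours and not separate loci. Their local expectation in METTL3-sh was 0.678 to 1.22 times that in NC-sh. All 6 had a higher fold enrichment in NC-sh than METTL3 and were thus farther from the limit. Of the 10 NC-sh peaks with the highest local expectation, 9 had a counterpart, and METTL3 was the exception.

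**Figure D3:**
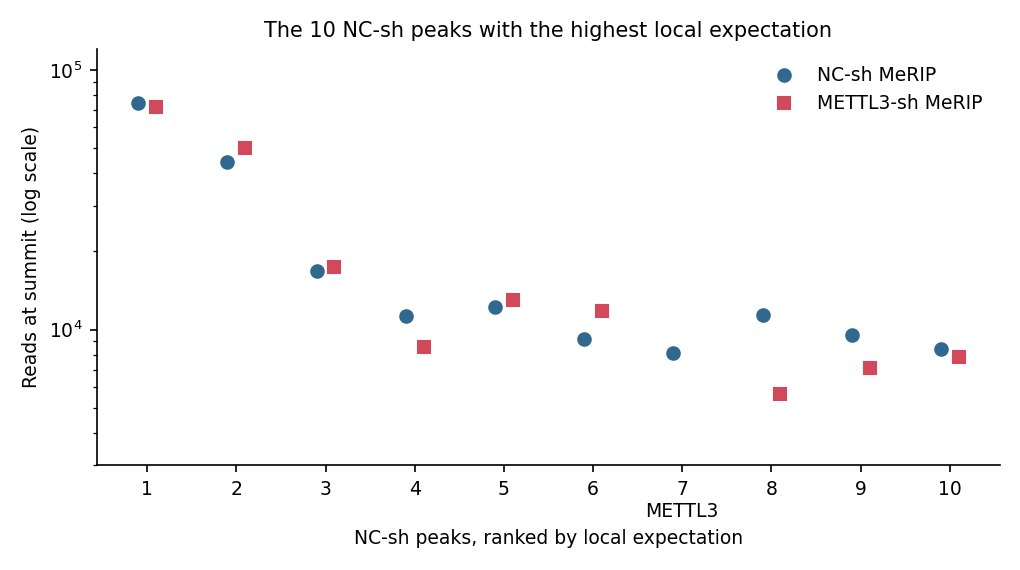
The 10 NC-sh peaks with the highest local expectation are ranked along the x axis, with reads at the summit on a log y axis for NC-sh (circles) and METTL3-sh (squares). METTL3, ranked 7th, has 8148 reads in NC-sh and no METTL3-sh point, whereas the other 9 peaks have both. METTL3 had the lowest NC-sh fold enrichment of the 10.

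Around METTL3, the nearest peak below the window was listed in both libraries. It lay 69.5 kb below the METTL3 summit, at chr14:21899251-21900136 in NC-sh, with 1708 reads and a fold enrichment of 50.9 there, and with 1330 reads and 44.1 in METTL3-sh. The local expectation of this peak was 10 in both. A weaker peak 115.4 kb below the METTL3 summit had 460 reads and a fold enrichment of 8.51 in NC-sh, and 480 reads and 7.98 in METTL3-sh. Above the window, NC-sh had 3 small peaks between 20.9 and 23.6 kb from the METTL3 summit, with 58, 31 and 43 reads and fold enrichments of 6.66, 7.37 and 8.37. These 3, and a peak of 338 reads 107.5 kb below METTL3, had no METTL3-sh counterpart. The next peak above in METTL3-sh lay 1271.7 kb from the METTL3 summit and was shared, with 649 reads and a fold enrichment of 29.2 against 509 reads and 23.7 in NC-sh. These 3 shared peaks, from the nearest to the farthest, differed in METTL3-sh from NC-sh by -0.21, -0.09 and 0.30 on the log2 scale of fold enrichment, against a median of 0.13 over all 6863 pairs. The peaks outside the window were not assigned to genes.

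**Figure D4:**
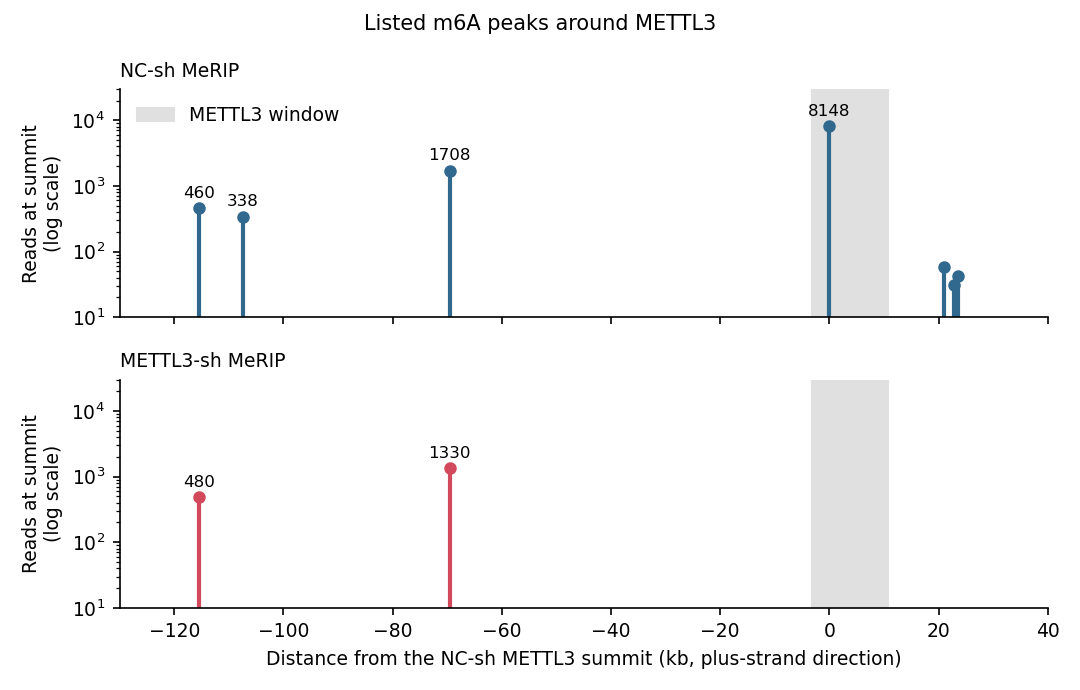
Listed peaks are drawn by the distance of their summits from the NC-sh METTL3 summit in kb (x axis) and their reads at the summit on a log scale (y axis), NC-sh above and METTL3-sh below, with the METTL3 window in grey. The peaks 115.4 and 69.5 kb below are listed in both libraries, whereas the window holds the peak with 8148 reads in NC-sh and none in METTL3-sh.

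The peak numbers left room for a called but unlisted METTL3-sh peak. Numbers run along the chromosome in both lists, and many are missing, 6004 of 15445 in NC-sh and 8336 of 20588 in METTL3-sh. Between the shared peaks that flank METTL3, the NC-sh list passed 9 numbers, of which 4 are listed and 5 are missing. The METTL3-sh list passed 3 numbers over the same stretch of 1.34 Mb, and all 3 are missing. Where these 3 lay, and whether 1 of them was at METTL3, was not tested. In NC-sh itself, 2 numbers are missing between the peak below and the METTL3 peak, and 2 between it and the peak above.

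The partners and opponents of METTL3 were not compared. The 7 further writer components METTL14, WTAP, VIRMA, RBM15, RBM15B, ZC3H13 and CBLL1 and the demethylases FTO and ALKBH5 could not be placed in the lists without an annotation of hg19. The amount of METTL3 mRNA in the Input libraries, which would show the knockdown itself, was not analysed here.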

How the data were processed

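The members and lists were chosen with earlier results of these data known. Per the labels, processing used TopHat2 2.0.13 and MACS2 2.1.0.20151222 with hg19. The filters are not given in the sources used here. Each MeRIP library had its own peak list, and nothing says that libraries were pooled. Pileup, as deposited, is a signal in rescaled reads. Fold enrichment was deposited as the ratio of pileup over local expectation. Values of −log10 p and −log10 q were deposited as MACS2 wrote them.

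Reads at the summit were pileup divided by the step of its values, 0.3273 in NC-sh and 0.3636 in METTL3-sh, which gave whole reads within 0.1 for 100% of peaks in both lists. Total depth is not known. A median of 169 reads covered the summits of NC-sh peaks and 132 those of METTL3-sh peaks. Peaks were paired by an overlap of at least 1 bp, and intervals cover counting error only. All peaks of the window were reported, with the nearest peaks outside it. Bands of reads, fold enrichment and local expectation were chosen after seeing the data. Python 3.11.15, numpy 2.4.6, pandas 2.3.3, scipy 1.17.1 and matplotlib 3.10.9 were used. Tested on a simulated copy of the 9441 NC-sh peaks, the overlap step recovered 6591 of 6591 kept peaks. The kept peaks were moved by far less than the shortest peak length of 200 bp, so full recovery was certain for working code. It says nothing on pairing between 2 real libraries. The Input libraries had no peak list and were used here only indirectly, through the deposited fold enrichment and the local expectation computed back from it.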

Additional observations from a re-analysis of the deposited data

How the results depend on the processing

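The NC-sh METTL3 peak was found when any base of a peak could lie in the window, when the window was widened by 1 kb on both sides and at a −log10 q of at least 36.6, the median of both lists. With a fold enrichment of at least 12, 0 NC-sh peaks remained at METTL3, and 0 also with at least 6.5, an alternative chosen after seeing the data. These filters exclude a peak of 6.44 by construction. METTL3-sh had 0 peaks in the window under each of these settings, and 0 pairs were found when 50% of each peak had to be shared or with summits within 100 bp. The nearest METTL3-sh peak lay 69.5 kb from the METTL3 summit, so none of these settings could have changed the METTL3-sh counts or given a pair. With an overlap of at least 50%, 31.3% of all NC-sh peaks had no counterpart, against 23.8% at 1 bp. The summed peak length stayed at 923 bp in NC-sh. The log2 ratios foreseen for METTL3 (fold enrichment, reads, centred pileup, −log10 q) were not run, as there was no METTL3-sh peak to compare. No paired analysis was possible because MeRIP libraries were not replicated.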
